A study of Mus musculus with 5 samples.

Results

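The genes described here are Aqp1, Aqp2, Aqp3, Aqp4, Aqp6 and Avpr2, which were found by their symbols and are 6 of the 32285 genes in the deposited matrices. They were measured by droplet single-cell RNA sequencing (10x Genomics 3′ v3.1 chemistry) in kidneys of 5 mice after ischemia-reperfusion injury (IRI), in which the blood supply is stopped and then restored. Mice 1 and 2 were taken at 48 h and mice 3, 4 and 5 at day 10, with 1 library for each mouse. All of these kidneys were injured, uninjured kidney was not analysed here, and strain, genotype, sex and age are not given in the labels used here. The question the design poses is how transcripts of each cell type differ between these times.

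Aquaporins are membrane channels that let water cross the epithelium along osmotic gradients. Aqp1 is the water channel of the proximal tubule, the descending thin limb of Henle's loop and the endothelium of the descending vasa recta, whereas the collecting system takes up water under the control of vasopressin. The hormone binds Avpr2, a receptor that raises cyclic AMP in principal and connecting tubule cells. Aqp2 is then moved into the apical membrane and its gene is transcribed more, and the water leaves the cell through Aqp3 and Aqp4 in the basolateral membrane. Aqp6 is a vesicle protein of acid-secreting type A intercalated cells that conducts anions.

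The deposited table assigned 23797 cells to 18 cell type labels. The median number of unique molecular identifiers (UMIs, counted transcripts) per cell in a library was between 5823 and 11750, with both libraries of 48 h below those of day 10, and 57 barcodes occurred in more than 1 library. Marker genes were highest in their own label for 8 of 8 proximal tubule, 6 of 7 descending thin limb, 7 of 7 intercalated cell and 6 of 6 endothelial markers. Only 2 of 7 principal cell markers, Fxyd4 and Gata3, were highest in the principal cell label. Of the others, Hsd11b2, Scnn1b, Scnn1g and Stc1 were highest in the connecting tubule label and Apela in the descending thin limb label. The connecting tubule label led in 3 of its 5 markers. Both labels thus share the markers of the vasopressin-sensitive cells, and they are named below as the authors labelled them.

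Levels are given as CPM, a gene's part of all UMIs summed over the cells of a label in a mouse, on the usual CPM scale. The labels rest on the same transcripts, so levels between labels are described without a test. Day 10 was compared with 48 h by edgeR's quasi-likelihood test on the summed UMIs in 17 labels with at least 10 cells in every library. Fold changes are log2 values of day 10 relative to 48 h with their standard error (SE), and a call is an adjusted p (Benjamini-Hochberg over the genes of a label) under 0.05. With 1 library for each mouse, the p-values set the difference between the times against the spread among mice of the same time.

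The 6 genes were each concentrated in a few labels, some of them shared, as the plot of levels by label shows. Aqp2, Aqp3, Aqp4 and Avpr2 had their highest mean in principal cells, Aqp6 in intercalated cells and Aqp1 in the descending thin limb. For Aqp3 principal cells were above the connecting tubule in only 2 of 5 mice. For Aqp1 the thin limb was above the endothelium in only 2 of 5 mice. Of 102 possible pairs of a gene and a tested label, 52 passed the filter on low counts, and 3 of those were called: Aqp1 rose in the S1 proximal tubule and fell in the descending thin limb, and Aqp6 fell in intercalated cells. These 3 were 5.77% of the pairs tested, against 4.93% of all 171744 gene and label pairs, so the share of calls was close to the background. An unadjusted p under 0.05 was reached by 16 of the 52 pairs (30.8%), against 18.5% of all gene and label pairs.

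**Figure D1:**
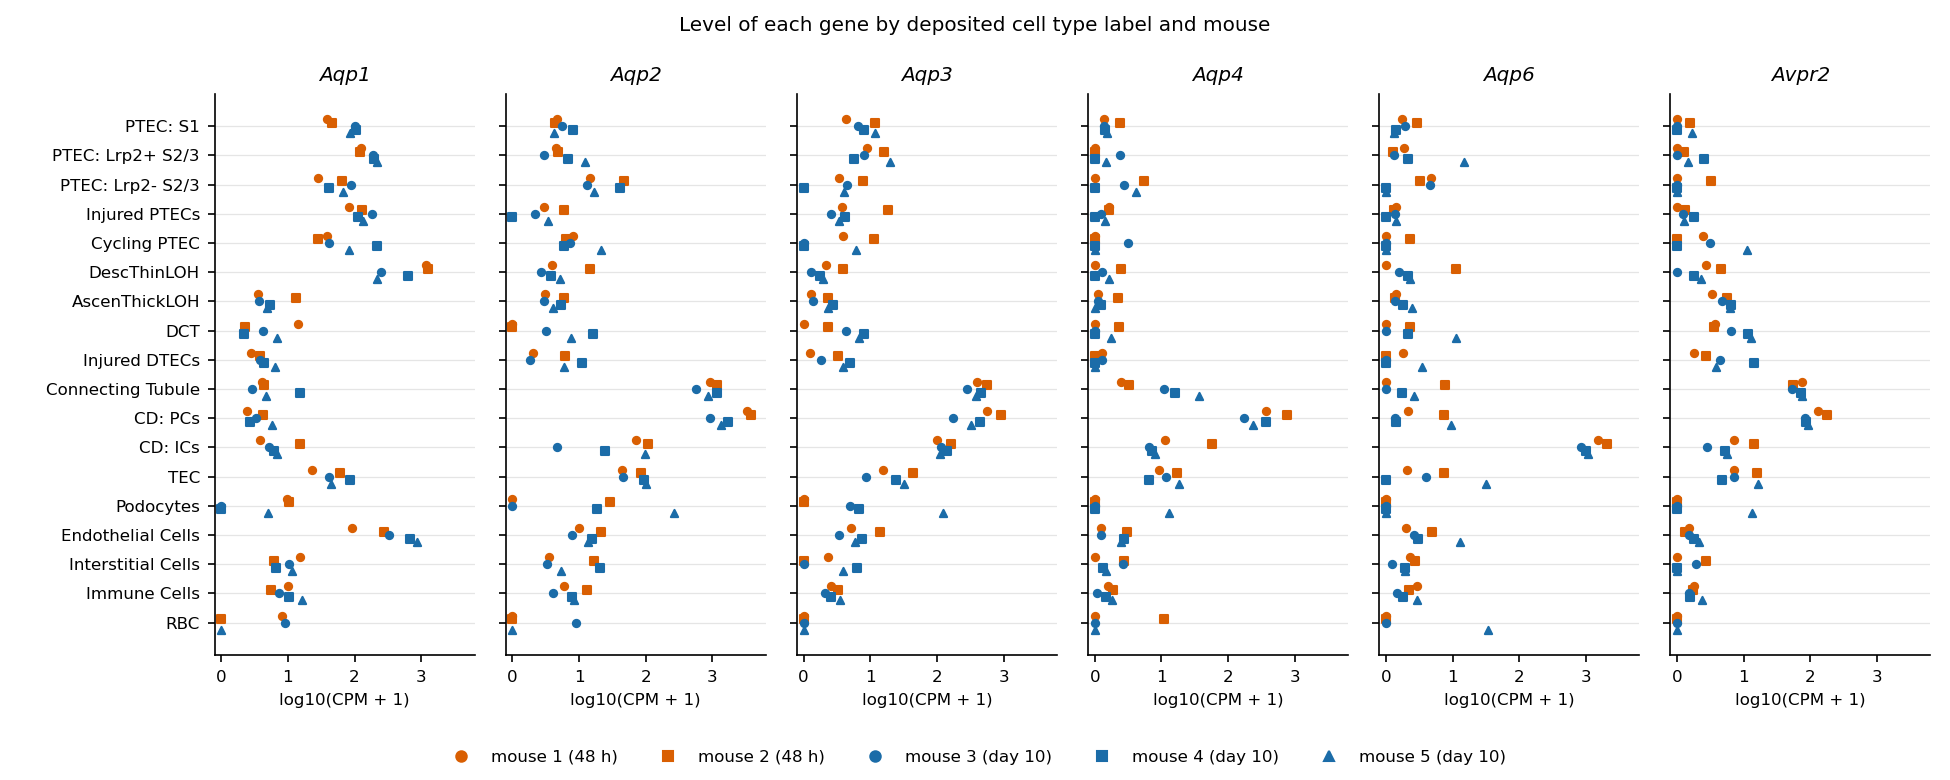
Level of each gene on a log10(CPM + 1) axis by cell type label, one point per mouse (orange, 48 h; blue, day 10). Aqp2, Aqp3, Aqp4 and Avpr2 have their highest mean in the principal cell label and Aqp6 in the intercalated cell label. Aqp3 is nearly as high in the connecting tubule label, and Aqp1 is spread over proximal tubule labels, descending thin limb and endothelium. The red blood cell label holds few cells in each library and none of mouse 4.

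Avpr2, the vasopressin receptor, lies on chromosome X (73892102 to 73895502, plus strand, mm10 with GENCODE M21) and overlaps L1cam and Arhgap4 on the opposite strand. Whether the counting used strand is not given in the sources used here, so reads of these genes may not be told apart. Its level in principal cells was 129.9 and 176 CPM in the mice of 48 h and 83.1, 85.8 and 90.9 CPM in those of day 10. Both early mice stood above all late mice, and the late mice were close together. The difference was -0.95 (SE 0.16) and did not pass (adjusted p = 0.131). Of 11152 genes tested in principal cells only 0.0628% were called.

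In the connecting tubule Avpr2 was 74.3, 53.4, 51.0, 70.0 and 74.4 CPM in mice 1 to 5, below principal cells in every mouse and with no overlap of the ranges of both labels. The times overlapped there (log2 fold change -0.09, SE 0.25, adjusted p = 0.979, with 0.0104% of connecting tubule genes called). Principal cells held 63.5% of all Avpr2 UMIs and the connecting tubule 18.2%. The next label, TEC, whose cells have few UMIs, had a mean of 9.24 CPM. In the thick ascending limb, where the receptor is also known, the level was between 2.38 and 5.43 CPM (152 UMIs in all 5 mice). A UMI was found in 4.54 to 9.57% of those cells, against 0.584 to 1.31% of immune cells, which should lack the gene. With each cell thinned to 1000 UMIs the thick ascending limb shares were 0.146 to 1.37% and those of immune cells at most 0.145%. The median was between 16880 and 23939 UMIs per thick ascending limb cell and between 5419 and 14560.5 per immune cell. The times did not differ in the thick ascending limb beyond the spread (log2 fold change 0.10, SE 0.37, adjusted p = 0.891), where 10.4% of genes were called.

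Aqp2, the channel that vasopressin controls, lies on chromosome 15 (99579055 to 99584547, plus strand) at the start of a cluster of aquaporin genes. Aqp5 follows after 6234 bases and Aqp6 (99601400 to 99605477, plus strand) after another 6570, so that the cluster spans 26423 bases. Despite this closeness the cells differed: 77.7% of Aqp2 UMIs were in principal cells, 96.0% of Aqp6 UMIs in intercalated cells, and Aqp5 had only 94 UMIs in all cells, with its highest mean in principal cells (3.29 CPM). Aqp3 lies on chromosome 4 (41092722 to 41098183, minus strand), Aqp1 on chromosome 6 (55336432 to 55348555, plus strand) and Aqp4 overlaps an antisense gene on the opposite strand.

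The 250 bases before the RefSeq start of Aqp2, Aqp6 and Aqp3 are printed to set neighbours that differ in cell type (Aqp2 and Aqp6) beside genes that share one (Aqp2 and Aqp3). They are from the RefSeq promoter table (GRCm38.p6), 5′ to 3′ on the gene's strand, from chr15:99578806-99579055 (plus strand), chr15:99600950-99601199 (plus strand) and chr4:41098184-41098433 (minus strand). Capitals mark matches to 4 motifs searched on both strands: the cyclic AMP response element TGACGTCA, its core TGACG (contained in the former), the GATA motif AGATAA and the NFAT core TGGAAA.
Aqp2: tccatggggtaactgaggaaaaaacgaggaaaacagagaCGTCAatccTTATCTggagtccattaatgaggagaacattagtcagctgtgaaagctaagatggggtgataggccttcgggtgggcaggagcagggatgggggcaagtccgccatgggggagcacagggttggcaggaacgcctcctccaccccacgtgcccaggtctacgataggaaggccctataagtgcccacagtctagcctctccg
Aqp6: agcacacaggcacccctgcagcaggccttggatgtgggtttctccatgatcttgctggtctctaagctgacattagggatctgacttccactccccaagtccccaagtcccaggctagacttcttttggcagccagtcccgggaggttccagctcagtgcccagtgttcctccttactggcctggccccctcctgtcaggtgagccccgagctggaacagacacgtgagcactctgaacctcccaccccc
Aqp3: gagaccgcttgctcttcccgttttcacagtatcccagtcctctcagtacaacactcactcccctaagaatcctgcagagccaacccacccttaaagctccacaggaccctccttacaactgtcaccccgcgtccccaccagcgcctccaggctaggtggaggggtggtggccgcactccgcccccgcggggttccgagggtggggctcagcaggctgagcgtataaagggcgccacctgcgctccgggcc
The Aqp2 stretch held 1 such core and 1 GATA motif, both on the reverse strand (CGTCA and TTATCT), and the stretches of Aqp6 and Aqp3 held none of the 4. Among 32851 stretches of the same length, 17.8% held the core TGACG, 9.99% the GATA motif, 18.6% the NFAT core and 1.55% the full element. A match describes letters only, and its absence says no more than that these letters are not in this stretch.

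In principal cells Aqp2 was 3303 and 3821 CPM at 48 h and 923, 1713 and 1346 CPM at day 10. The lowest early mouse stood well above the highest late mouse. The log2 fold change of -1.55 (SE 0.27) did not pass in edgeR (adjusted p = 0.134). It passed with the DESeq2 Wald test (adjusted p = 8.15e-06, Benjamini-Hochberg), which called 0.959% of the genes of this label, and with cells thinned to 1000 UMIs (-1.37, edgeR adjusted p = 0.0179). With a mouse left out the edgeR adjusted p was between 0.0339 (without mouse 1) and 0.550 (without mouse 5). Avpr2 (adjusted p = 0.00174) and Aqp3 (adjusted p = 0.0251) also passed with DESeq2 in this label, and Aqp4 did not (adjusted p = 0.0753).

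Aqp3, a basolateral channel for water and glycerol, had 560 and 925 CPM in principal cells at 48 h and 176, 442 and 319.5 CPM at day 10, again without overlap (log2 fold change -1.37, SE 0.37, adjusted p = 0.281). Aqp4, the other basolateral channel, had 368 and 767 CPM at 48 h and 171, 369 and 232 CPM at day 10. Here mouse 4 reached the level of mouse 1, and the difference (-1.26, SE 0.38, adjusted p = 0.336) did not pass. None of the 4 genes was therefore called by edgeR in principal cells, although all had an unadjusted p under 0.05 and a lower mean at day 10.

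The connecting tubule held the same genes at other proportions. Aqp2 was 936, 1176, 564, 1157 and 871 CPM in mice 1 to 5, lower than in principal cells in 5 of 5 mice, although the ranges of the labels overlapped. Aqp3 was 394, 566, 284, 460 and 386 CPM, with principal cells higher in 2 of 5 mice. These were the early mice, and the connecting tubule was higher in every late mouse. Aqp4 was nearly restricted to principal cells, which held 92.1% of its UMIs and whose mean was 22.3 times that of the next label, intercalated cells. In the connecting tubule it was 1.52, 2.22, 10.1, 14.9 and 36.1 CPM from 126 UMIs, with all late mice above both early ones (log2 fold change 3.29, SE 0.88, adjusted p = 0.376). Aqp2 (-0.42, SE 0.27, adjusted p = 0.793) and Aqp3 (-0.49, SE 0.23, adjusted p = 0.744) overlapped between the times in this label.

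The difference between the time effects of both labels was tested with mouse as a block, a comparison chosen once the data had been seen. For Aqp2 the effect was lower in principal cells by a log2 value of -1.11 (SE 0.17, adjusted p = 0.0390), 1 of the 0.0868% of genes called. All late principal cell values were under the early ones, whereas late mouse 4 in the connecting tubule lay beside early mouse 2. The same difference was -0.93 (SE 0.20, adjusted p = 0.104) for Aqp3, -4.69 (SE 0.85, adjusted p = 0.0700) for Aqp4 and -0.86 (SE 0.26, adjusted p = 0.267) for Avpr2, none of which passed. For Aqp2 the call was lost without mouse 3 (adjusted p = 0.0635), mouse 4 (0.0723) or mouse 5 (0.159) and with cells thinned to 1000 UMIs (-0.74, adjusted p = 0.499).

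**Figure D2:**
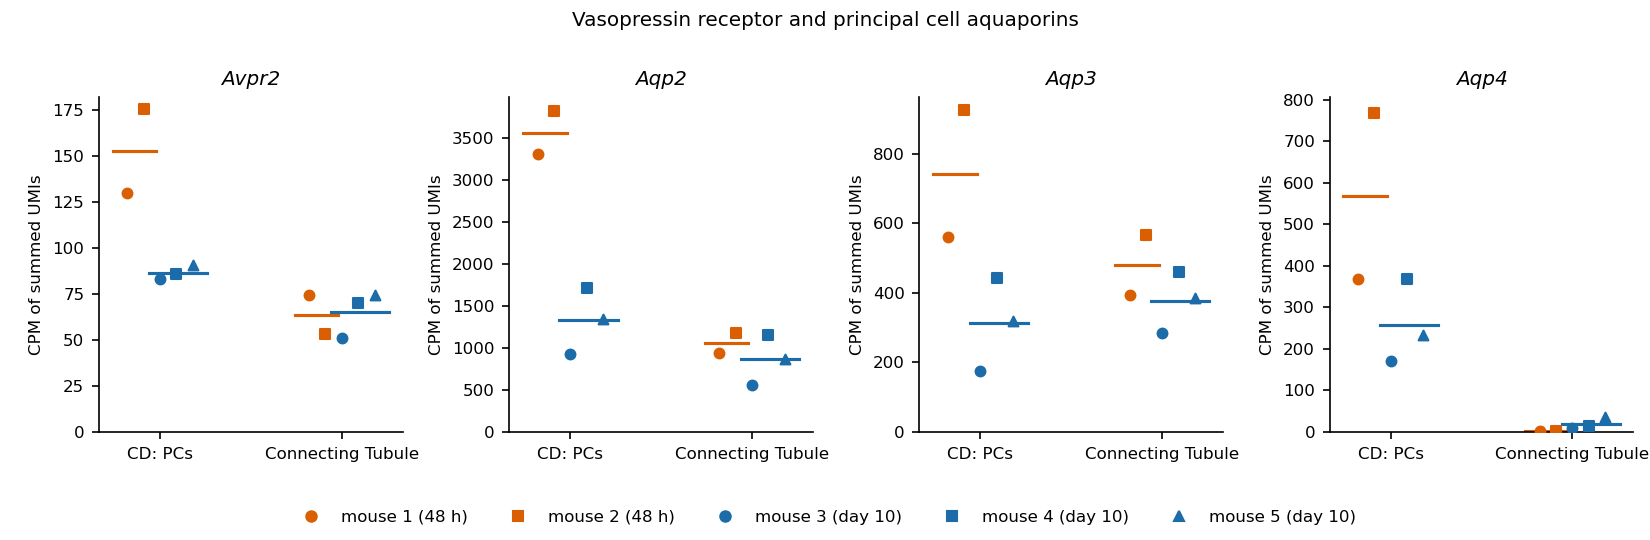
CPM of summed UMIs of Avpr2, Aqp2, Aqp3 and Aqp4 in the principal cell (CD: PCs) and connecting tubule labels, one point per mouse with the mean of each time as a line (orange, 48 h; blue, day 10). Late principal cell points of Aqp2 lie between 923 and 1713 CPM, below early points of 3303 and 3821 CPM, whereas the connecting tubule points of both times mix, except for the low Aqp4 values.

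The share of principal cells with an Aqp2 UMI was 96.9 and 97.8% at 48 h and 68.8, 76.9 and 72.7% at day 10. Immune cells, which should lack the gene, had 3.32 to 7.63%. With cells thinned to 3000 UMIs the principal cell shares were 90.8, 96.7, 51.9, 61.3 and 61.0%, so they separated in the same way. This left out 11, 13, 13, 6 and 11 shallower principal cells of mice 1 to 5. The median depth of principal cells was 22004 and 20003.5 UMIs at 48 h and 18436, 20254 and 17699 at day 10. At least 5 Aqp2 UMIs were found in 82.3 and 91.8% of the early cells and in 47.2, 55.6 and 54.6% of the late ones. Among the cells that had an Aqp2 UMI the level was 3377 and 3874 CPM against 1409, 2259 and 1811 CPM, so that both the share and the level within positive cells were lower in every late mouse. In the connecting tubule the shares were 86.8, 84.1, 69.0, 81.2 and 81.1%.

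Aqp3 followed the same division, with a UMI in 90.0 and 92.5% of early and 54.9, 65.0 and 61.1% of late principal cells (immune cells 1.21 to 2.22%). For Aqp4 the shares overlapped between the times, at 71.5 and 81.3% early and 66.0, 83.8 and 70.8% late (immune cells at most 0.757%). For Avpr2 they were 66.9 and 67.9% early and 53.5, 54.7 and 64.4% late. The times were thus apart for Aqp2, Aqp3 and Avpr2 and overlapped for Aqp4. With cells thinned to 3000 UMIs the Aqp4 shares were 47.1, 67.8, 34.4, 51.4 and 39.5% in mice 1 to 5, and they still overlapped.

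Late principal cells without an Aqp2 UMI were therefore described apart. The split and the genes named for it were chosen once the data had been seen, and no test is given. They were 45, 27 and 59 cells in mice 3, 4 and 5 (31.2, 23.1 and 27.3% of the label). Their median depth over these mice was 19639 UMIs, against 18108.5 in the cells with an Aqp2 UMI, so they were not shallower. Aqp3 was 8.80, 21.6 and 22.3 CPM in them against 265, 576 and 422 CPM in the cells with Aqp2. Aqp3 was thus low in the cells without Aqp2 in each late mouse.

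Aqp4, by contrast, was 124, 245 and 125 CPM in the cells without Aqp2 and 196, 409 and 269.5 CPM in those with it. Of the 477 late cells 261 had UMIs of both genes, 85 of Aqp4 alone, 85 of Aqp2 alone and 46 of neither. At 48 h 199 cells had both, 58 Aqp2 alone and 3 Aqp4 alone. Avpr2 was 33.0, 48.7 and 51.3 CPM without and 109, 97.7 and 105 CPM with Aqp2, so it was lower without Aqp2 in each late mouse.

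The Aqp2-free late cells kept several, though not all, transcripts that mark principal cells, at lower levels. Hsd11b2, the enzyme that inactivates glucocorticoids, was 587, 438 and 635 CPM in them and 2182, 1936 and 2283 CPM in the cells with Aqp2. Scnn1g, a sodium channel subunit, was 49.5, 54.1 and 63.0 CPM against 162, 218 and 186 CPM, and Fxyd4, a regulator of the sodium pump, 1281, 1545 and 1119 CPM against 2546, 3146 and 2471 CPM. The transcription factor Gata3 was closer between the sets (187, 169 and 210 CPM against 269, 224 and 307 CPM) than Elf5 (24.2, 23.4 and 31.0 CPM against 51.0, 46.5 and 72.7 CPM). Kcnj1, a listed principal cell potassium gene, was 82.5, 0 and 49.4 CPM against 220, 74.1 and 189 CPM. Car15 was 45.1, 48.7 and 63.9 CPM against 709, 574 and 766 CPM. All of these genes were lower in the Aqp2-free cells of every late mouse.

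Other transcripts were higher in the Aqp2-free late cells of all 3 mice. Pigr, which carries antibodies across epithelia, was 562, 211 and 431 CPM against 94.4, 40.2 and 118 CPM, and the membrane-bound Basp1 213, 296 and 184 CPM against 73.0, 32.7 and 53.0 CPM. The adhesion molecule Vcam1 was 239.8, 43.3 and 32.9 CPM against 2.90, 3.45 and 4.02 CPM. Its UMIs were in only 31.1, 14.8 and 11.9% of the Aqp2-free cells, against 4.04, 5.56 and 5.73% of the others. Fxyd3 was 82.5, 99.1 and 50.4 CPM against 7.53, 3.45 and 11.4 CPM. The iron-siderophore binder Lcn2, high in both sets, was 10092, 12848 and 7908 CPM against 5790, 4672 and 5433 CPM. Cxcl5, a neutrophil attractant, was 241 and 126 CPM in mice 3 and 5 and at 0 in mouse 4. At 48 h only 4 and 3 cells lacked Aqp2, too few to describe as a set. Of these 7 cells 3 held UMIs of the basal keratins Krt15 and Krt5, which are not principal cell genes.

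**Figure D3:**
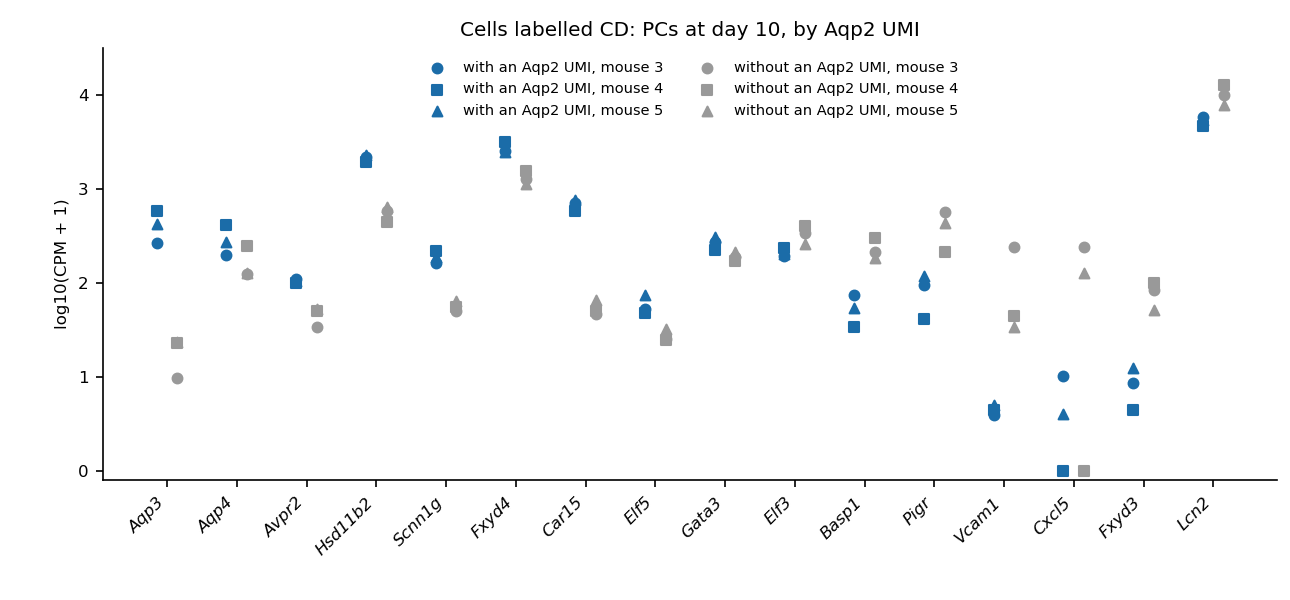
Levels on a log10(CPM + 1) axis of 16 genes in principal cells of day 10 with (blue) and without (grey) an Aqp2 UMI, one point per mouse. Aqp3 is at 265 to 576 CPM with Aqp2 and at 8.80 to 22.3 CPM without it, Aqp4 and Gata3 lie closer, and Elf3, Basp1, Pigr, Vcam1, Fxyd3 and Lcn2 are higher without it.

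Markers of other cells in the principal cell sums differed among the mice, and 3 lists divided the times without overlap. The 6 thick ascending limb markers, led by Kcnj1, summed to 776 and 276 CPM early and 254, 86.3 and 259 CPM late. Kcnj1 (334 CPM in mouse 1 and 153 CPM in mouse 5) is also listed as a principal cell potassium gene, so that sum is partly of the label's own genes. The 7 intercalated cell markers, led by Atp6v1b1, summed to 27.4 and 69.6 CPM early and 92.9, 153 and 127 CPM late. The 5 interstitial markers summed to 7.40 and 7.64 CPM early and 15.2, 96.7 and 8.22 CPM late. Other lists overlapped between the times. The 5 connecting tubule markers summed to 301 and 427 CPM early and 893, 283 and 770.3 CPM late. The 7 immune markers summed to 65.5 and 473 CPM early and 319, 207 and 269 CPM late. The 3 red blood cell markers were highest in mice 1 and 5 (318 and 1342 CPM). No immune marker and no red blood cell marker was at 0 throughout. In the connecting tubule sums the thick ascending limb (742 and 449 CPM early, 442, 299 and 349 CPM late) and red blood cell lists were lower late. The distal convoluted tubule (517 and 546 CPM early, 581, 1363 and 1154 CPM late) and immune lists (34.9 and 92.3 CPM early, 139.7, 306 and 249 CPM late) were higher late there. Calb1, also a listed connecting tubule marker, led the distal convoluted tubule list (437 CPM in mouse 1 and 1031 CPM in mouse 5). Kcnj1 led the thick ascending limb list there (300 CPM in mouse 1 and 270 CPM in mouse 5). The part of all these in the values of Avpr2, Aqp2, Aqp3 and Aqp4 was not tested.

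Other genes of the pathway were described from lists. Of 28 vasopressin signalling genes 21 passed the filter in principal cells. By edgeR 0 were called (4 with an unadjusted p under 0.05, 0 by DESeq2), with a median log2 fold change of -0.11 against -0.01 over all genes of the label. Of 12 transcription factors of collecting duct genes 0 were called by edgeR (4 with an unadjusted p under 0.05, 1 by DESeq2, median 0.00). Among 9 sodium and potassium genes 0 were called by edgeR (1 with an unadjusted p under 0.05, 1 by DESeq2, median -0.07). Of 8 genes for osmolytes and urea 5 passed the filter and 0 were called by edgeR (2 with an unadjusted p under 0.05, 0 by DESeq2). Of 7 other aquaporin genes 2 passed the filter and 0 were called by edgeR (1 with an unadjusted p under 0.05, 0 by DESeq2). In the connecting tubule 0 genes of these 5 lists were called by either tool, with an unadjusted p under 0.05 for 2 transcription factors and 2 osmolyte genes.

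Aqp6 was measured almost only in intercalated cells, at 1527 and 2035 CPM at 48 h and 828, 991 and 1090 CPM at day 10. The mean over the 5 mice was 1294 CPM (SD 488), 155 times that of the next label. Both early mice were above all late mice, and Aqp6 fell (log2 fold change -0.996, SE 0.14, adjusted p = 0.0393) in a label with 0.238% of 10510 genes called. The share of cells with an Aqp6 UMI overlapped between the times (56.0 and 68.1% early, 59.7, 58.8 and 60.3% late, immune cells 0.539 to 1.61%). With cells thinned to 3000 UMIs, which left out 25, 22, 17, 20 and 38 shallower cells of mice 1 to 5, it was 64.4 and 78% early and 54.9, 59.6 and 60.2% late, without overlap. In positive cells the level was 2232 and 2235 CPM early and 1276, 1441 and 1656 CPM late. The call was lost without mouse 2 (adjusted p = 0.160), 3 (0.0953), 4 (0.140) or 5 (0.214), with library sizes alone (0.0779) and with cells thinned to 1000 UMIs (log2 fold change -0.51, adjusted p = 0.386).

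Intercalated cells are of a type A, which secretes acid through the anion exchanger Slc4a1, and a type B, which secretes base through Slc26a4. Split by these UMIs, a choice that followed a look at the data, Aqp6 was 2518, 2384, 1667, 1690 and 2140 CPM in cells of mice 1 to 5 with Slc4a1 alone. It was 20.4, 188, 21.1, 17.3 and 41.5 CPM in the 15, 7, 33, 25 and 55 cells with Slc26a4 alone. The value of mouse 2 came from 20 UMIs in 14.3% of its 7 cells. Between these sets, Aqp6 was thus far higher in the cells with Slc4a1 alone. Cells with neither UMI were 41.7, 29.2, 39.6, 42.1 and 35.5% of the label in mice 1 to 5. Their Aqp6 lay in between, at 877, 784, 626, 884 and 606 CPM. Cells with Slc26a4 alone were 17.9 and 9.72% of the label early and 23.7, 21.9 and 25.7% late, and cells with Slc4a1 alone 40.5 and 61.1% early and 35.3, 35.1 and 38.3% late. Fitted in the 34, 44, 51, 41 and 83 cells with an Slc4a1 UMI, Aqp6 was 2518, 2384, 1678, 1737 and 2101 CPM, the log2 fold change was -0.54 (SE 0.15) and it did not pass (adjusted p = 0.257, with 0.106% of genes called). The fold in the whole label was thus larger than in these cells, in which the difference was no longer called.

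Aqp3 was also found in intercalated cells, at 98.0, 164, 115, 140 and 109.6 CPM in mice 1 to 5, and its UMIs were in 49.1 to 63.2% of them. The times overlapped (log2 fold change -0.22, SE 0.21, adjusted p = 0.767). It was 120, 206, 203, 221 and 144 CPM in cells with Slc26a4 alone and 95.7, 162, 95.8, 139.5 and 99.1 CPM in cells with Slc4a1 alone, higher in the former in every mouse. The former value of mouse 2 rested on 22 Aqp3 UMIs in 7 cells. Aqp4 in the label was 10.4 and 56.7 CPM early and 5.52, 6.21 and 6.91 CPM late (log2 fold change -2.46, SE 0.58). It did not pass in edgeR (adjusted p = 0.182) and passed in DESeq2 (Wald test, adjusted p = 0.0146), and mouse 2 stood far above the rest. Only 125 Aqp4 UMIs, in 1.19 to 3.27% of the cells, are behind these values.

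**Figure D4:**
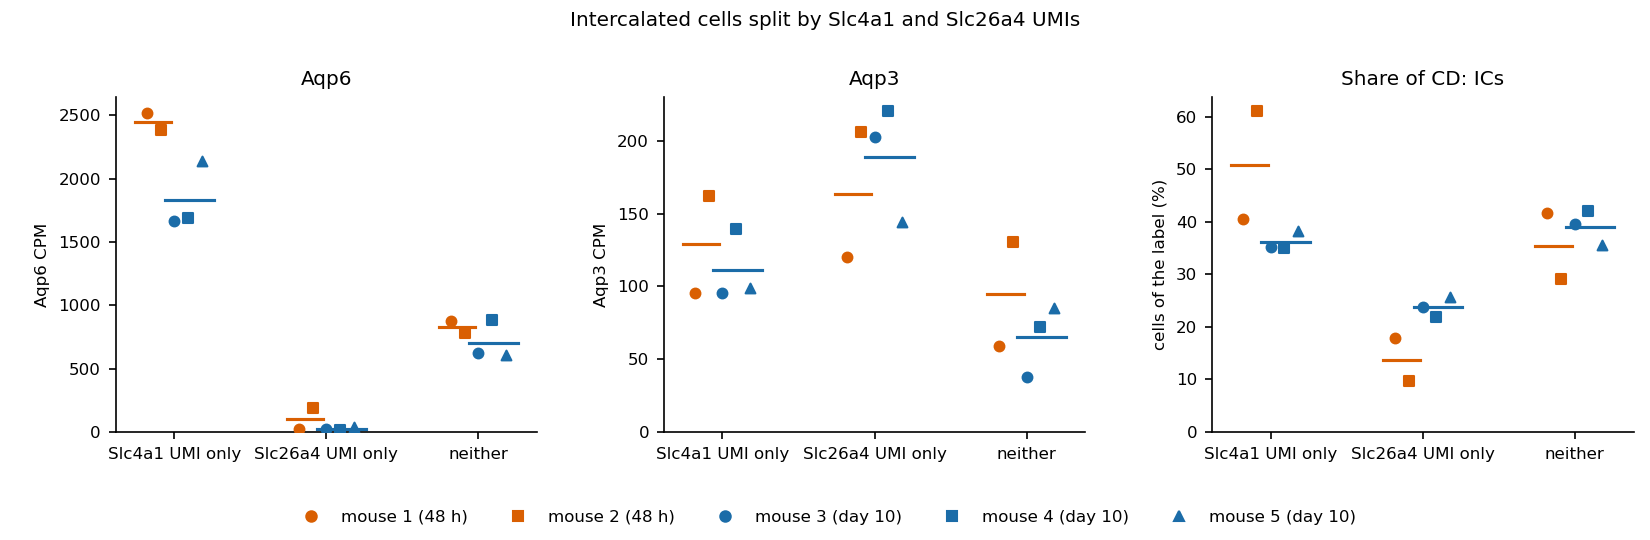
Intercalated cells divided by UMIs of Slc4a1 and Slc26a4: CPM of Aqp6, CPM of Aqp3 and share of the label in percent, one point per mouse with the mean of each time as a line (orange, 48 h; blue, day 10). Aqp6 lies between 1667 and 2518 CPM with Slc4a1 alone and at most at 188 CPM with Slc26a4 alone. With neither it lies between 606 and 884 CPM. The set with neither had a median depth of 1979 and 1634 UMIs in the early mice.

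Principal cell transcripts moved with the time in the intercalated cell sums. The 7 principal cell markers summed to 928 and 1664 CPM early and 496, 547 and 757 CPM late, and Fxyd4 fell (600 and 1188 CPM early, 185, 234 and 240.2 CPM late, log2 fold change -2.13, SE 0.24, adjusted p = 0.0251). It was the only call among 9 sodium and potassium genes. Of 22 vasopressin signalling genes, 12 transcription factors and 5 osmolyte genes that passed the filter 0 were called by edgeR or DESeq2, and 1, 3 and 0 had an unadjusted p under 0.05. The 7 descending thin limb markers, led by Cryab, summed to 1325 and 1525 CPM early and 680, 802 and 634 CPM late. The 5 interstitial markers, led by Dcn, summed to 4.14 and 10.6 CPM early and 125, 83.6 and 66.8 CPM late. Red blood cell markers (217 and 23.0 CPM early, at most 19.3 CPM late, Alas2 at 0) and endothelial markers (18.6 and 15.1 CPM early, at most 12.4 CPM late) were lower late. The 6 thick ascending limb markers were highest in mouse 1 (1314 CPM), and the immune markers highest in mouse 2 (1116 CPM). The part of these in the fall of Aqp6 was not tested.

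Aqp1 had more than 1 home. Its mean over the 5 mice was 703 CPM (SD 493) in the descending thin limb, 442 CPM (SD 312) in endothelial cells, 167 CPM (SD 43.0) in the Lrp2-positive S2/3 proximal tubule, 128 CPM in injured and 74.5 CPM in S1 proximal tubule cells. The label of cycling proximal tubule cells (37.6 and 27.7 CPM early, 40.5, 214 and 82.3 CPM late) is left out of this order, since its few late cells had little Hnf4a, a proximal tubule factor (12.8, 4.99 and 24 CPM against 178 and 230.5 CPM early). Ranges of neighbouring labels in this order overlapped throughout. Endothelial cells held 31.0% of its UMIs, the descending thin limb 26.1%, injured proximal tubule 16.1% and the Lrp2-positive label 13.9%. The order changed with time: the descending thin limb was above the endothelium in both early mice and below it in all 3 late mice.

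In the descending thin limb Aqp1 was 1169 and 1254 CPM at 48 h and 246, 631 and 215 CPM at day 10. It fell (log2 fold change -1.77, SE 0.39, adjusted p = 0.0350) in a label with 5.12% of genes called. The share of cells with at least 5 Aqp1 UMIs was 40.0 and 45.8% early and 25.0, 34.2 and 17.8% late, and in those cells the level was 2777 and 2660 CPM against 904, 1870 and 1103 CPM. Both the share and the level in such cells were thus lower late. The median depth of thin limb cells was 15946 and 11228 UMIs early and 24346.5, 21484.5 and 18756 UMIs late. A deeper cell reaches 5 UMIs at a lower CPM, so the level in such cells also depends on depth. With cells thinned to 1000 UMIs the fold was -1.90 (adjusted p = 0.00170). The call was lost with DESeq2 (Wald test, adjusted p = 0.0922), without the 5% of cells with the most UMIs (0.0770) and without mouse 1 (0.118), 2 (0.139), 3 (0.0753) or 5 (0.0826).

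The descending thin limb label was not uniform. Cells with at least 5 Aqp1 UMIs and cells with none were set side by side, again a split and genes chosen with the data in view. Fst, which binds activin, was 842, 541, 1832, 1516 and 686 CPM in the former and 0, 13.2, 82.1, 123 and 259 CPM in the latter in mice 1 to 5. Krt19, a keratin, was at most 27.3 CPM in the former and 85.5, 46.2, 275, 391 and 344 CPM in the latter. In summed CPM both genes divided the sets in every mouse. By cells the division was looser for Fst. Its UMIs were in 25.0, 31.8, 78.4, 61.5 and 71.4% of the Aqp1-rich cells of mice 1 to 5. Of the cells without Aqp1, 0, 4.88, 37.2, 30.6 and 28.8% had one. Slc14a2, a urea transporter of the thin limb and inner medulla, was 2632, 186, 166, 476 and 481 CPM in the cells rich in Aqp1. It was 4735, 4635, 941, 253 and 571 CPM in those without, higher there in all mice but mouse 4. Cells with a Krt19 UMI were 30.0 and 17.7% of the label early and 50.7, 38.6 and 57.3% late, and their Aqp1 was between 2.64 and 149 CPM. These shares were not taken at a fixed depth, and the late cells of this label were deeper. The label thus joined cells rich and poor in Aqp1, whose shares differed between the times.

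Listed genes of other roles were counted in the descending thin limb, to be read against its 5.12% of genes called in either direction. Of 6 osmolyte and urea genes that passed the filter 2 fell, Slc14a2 (4076 and 2384 CPM early, 637, 329 and 527 CPM late, log2 fold change -2.76, SE 0.29, adjusted p = 0.00160) and Slc5a3, an inositol transporter (-1.87, SE 0.32, adjusted p = 0.0127). The membrane protein Mal (1110 and 782 CPM early, 365, 494 and 450.2 CPM late) fell as the 1 call among 21 vasopressin signalling genes, a share near that background. Of 6 sodium and potassium genes 2 fell, among them the sodium pump subunit Atp1b1 (-1.21), and of 7 transcription factors Tfap2b (-1.28) was the only one to fall.

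Transcripts of several other cell types moved with the time in this label too. The 6 thick ascending limb markers, led by Umod, summed to 609 and 865 CPM early and 166, 70.5 and 161 CPM late, and the 3 red blood cell markers to 827 and 1710 CPM early and 13.9, 0.391 and 3.23 CPM late. The 7 principal cell markers, led by Apela, summed to 550.1 and 891 CPM early and 279, 326 and 291 CPM late. Apela (535 CPM in mouse 1 and 213 CPM in mouse 5) had its highest mean in the descending thin limb label itself. That sum is therefore not a measure of transcripts from other cells. Immune markers summed to 30.0 and 99.3 CPM early and 133, 188 and 254 CPM late, with Cd79a at 0, and the 4 podocyte markers to 10.9 and 5.80 CPM early and 13, 20 and 14.8 CPM late. The 8 proximal tubule markers stayed between 28.2 and 71.0 CPM in all mice. The part of these transcripts in the fall of Aqp1 was not tested.

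Among the proximal tubule labels Aqp1 was called in S1 cells only. There it was 37.7 and 44.7 CPM at 48 h and 101, 104 and 84.6 CPM at day 10, without overlap, and it rose (log2 fold change 1.07, SE 0.17, adjusted p = 0.0160) where 2.82% of genes were called. The median depth of S1 cells was 5682.5 and 7949 UMIs early and 10072, 12912 and 12842 UMIs late. The call was lost with cells thinned to 1000 UMIs, at a similar fold (1.22, adjusted p = 0.128), and without mouse 1 (0.96, adjusted p = 0.0859) or mouse 2 (1.20, adjusted p = 0.0840). Shares of thinned S1 cells with an Aqp1 UMI were 4.76 and 4.42% early and 10.2, 9.40 and 8.12% late. The late shares stood above the early ones at the fixed depth also.

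In the Lrp2-positive S2/3 label Aqp1 was 124, 118, 188, 192 and 213 CPM in mice 1 to 5, also without overlap (log2 fold change 0.57, SE 0.17, adjusted p = 0.145, 1.07% of genes called). In injured proximal tubule cells it was 82.5, 129, 182.5, 111.8 and 135 CPM and the times overlapped (0.05, SE 0.29, adjusted p = 0.939, 5.88% of genes called). In the Lrp2-negative S2/3 label it was 27.0, 64.4, 87.8, 40.0 and 65.1 CPM (0.68, SE 0.39, adjusted p = 0.501). The times thus mixed in both of these labels. In the cycling label the fold was 1.44 (SE 0.54, edgeR adjusted p = 0.0784), where 1516 of 7596 genes were called. With all proximal tubule labels merged, the cycling label included, the fold was 0.57 (SE 0.15, adjusted p = 0.0919). Of 20 vasopressin signalling and 6 osmolyte genes that passed the filter in S1 cells 0 were called by edgeR, 2 of each had an unadjusted p under 0.05 and DESeq2 called 1 of each.

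Connecting tubule markers in the S1 sums were 1778 and 1378 CPM early and 86.0, 102 and 144 CPM late, nearly all from S100g (1744 CPM in mouse 1 and 81.0 CPM in mouse 5). Immune markers in them were 70.7 and 388 CPM early and 515, 236 and 419 CPM late, with Cd3e at 0. Interstitial markers were 5.92 and 4.22 CPM early and 18.8, 24 and 13.5 CPM late, and intercalated cell markers 5.92 and 12.9 CPM early and 31.0, 14.9 and 14.9 CPM late. Descending thin limb markers were 165 and 59.1 CPM early and 229.9, 117 and 159 CPM late in the S1 sums, and endothelial markers 48.5 and 9.57 CPM early and 27.4, 16.1 and 28.0 CPM late. The part of any of them in the rise of Aqp1 was not tested.

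In endothelial cells Aqp1 was 89.4 and 274 CPM at 48 h and 323, 672 and 853 CPM at day 10. The late mice were higher, but mice 2 and 3 lay close together and the difference did not pass (log2 fold change 1.68, SE 0.53, adjusted p = 0.235, 0.328% of genes called). The transcript came from few cells. At least 5 Aqp1 UMIs were found in 15 and 36 early cells (1.82 and 5.59%) and 42, 35 and 48 late cells (5.92, 5.65 and 8.51%). These cells held between 80.9 and 98.0% of the label's Aqp1 UMIs in every mouse.

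The Aqp1-rich endothelial cells, described by genes chosen with the data in view, had more of several, though not all, listed transcripts of the descending vasa recta and arteries. Slc14a1, the urea transporter of that endothelium, was 435 to 697 CPM in them across the mice and 1.75 to 6.68 CPM in endothelial cells without an Aqp1 UMI. Scin, an actin-severing protein, was 773 to 1040 CPM against 34.1 to 42.9 CPM, and the arterial transcription factor Sox17 743 to 1288 CPM against 224 to 315 CPM. Plvap, of fenestrated capillaries, was 222 to 555 CPM against 1611 to 3144 CPM, and the glomerular Ehd3 6.34 to 49.0 CPM against 396 to 712 CPM. Slc5a3, another descending vasa recta marker, was higher in the Aqp1-rich cells (57.1 to 127 CPM against 18.9 to 54.3 CPM). Cryab, also such a marker, went the other way (12.7 to 39.2 CPM against 81.6 to 158 CPM). Igfbp7, like Plvap a listed marker of capillaries and ascending vasa recta, was higher (3812 to 6204 CPM against 1225 to 1755 CPM). The proximal tubule genes Lrp2 and Slc34a1 were at most 83.7 CPM in these cells and at most 106.5 CPM in the cells without Aqp1.

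Refitted in endothelial cells with an Slc14a1 or Scin UMI (100, 90, 105, 96 and 103 cells, 12.1 to 18.3% of the label), a subset picked with the data in view, Aqp1 was 428, 1199, 1229, 2864 and 2840 CPM. The fold was 1.48 (SE 0.45) and did not pass (adjusted p = 0.451, 0.112% of genes called). Mouse 1 was apart from the rest and mice 2 and 3 were nearly equal. Red blood cell markers in the endothelial sums were 6797 and 10139 CPM early and 3818, 1.26 and 27.0 CPM late, and no marker of that list was at 0 throughout. Thick ascending limb markers were also lower late (348 and 241 CPM early, 119.9, 62.2 and 118 CPM late). Intercalated cell markers (42.4 and 70.0 CPM early, 99.5, 139 and 102 CPM late) and interstitial markers (14.6 and 23.9 CPM early, 104, 69.8 and 38.4 CPM late) were higher late. The part of these in the Aqp1 values was not tested. Of 24 vasopressin signalling and 7 osmolyte genes that passed the filter in endothelial cells 0 were called by edgeR, 4 and 3 had an unadjusted p under 0.05 and DESeq2 called 0 and 1.

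The time effects of Aqp1 in these cell types were set against each other with mouse as a block. The effect in the descending thin limb was lower than that in the endothelium by a log2 value of -3.68 (SE 0.51, adjusted p = 0.00239), in a fit that called 2.09% of genes. It passed with any 1 mouse left out (-4.50 to -2.89), with library sizes alone (-3.73) and with cells thinned to 1000 UMIs (-2.99). The merged proximal tubule, again with the cycling label, differed from the endothelium by -1.18 (SE 0.50), which did not pass (adjusted p = 0.293, with 1.54% of genes called). Aqp1 thus had time effects of different size in the thin limb and endothelium, whereas a difference between proximal tubule and endothelium was not shown.

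**Figure D5:**
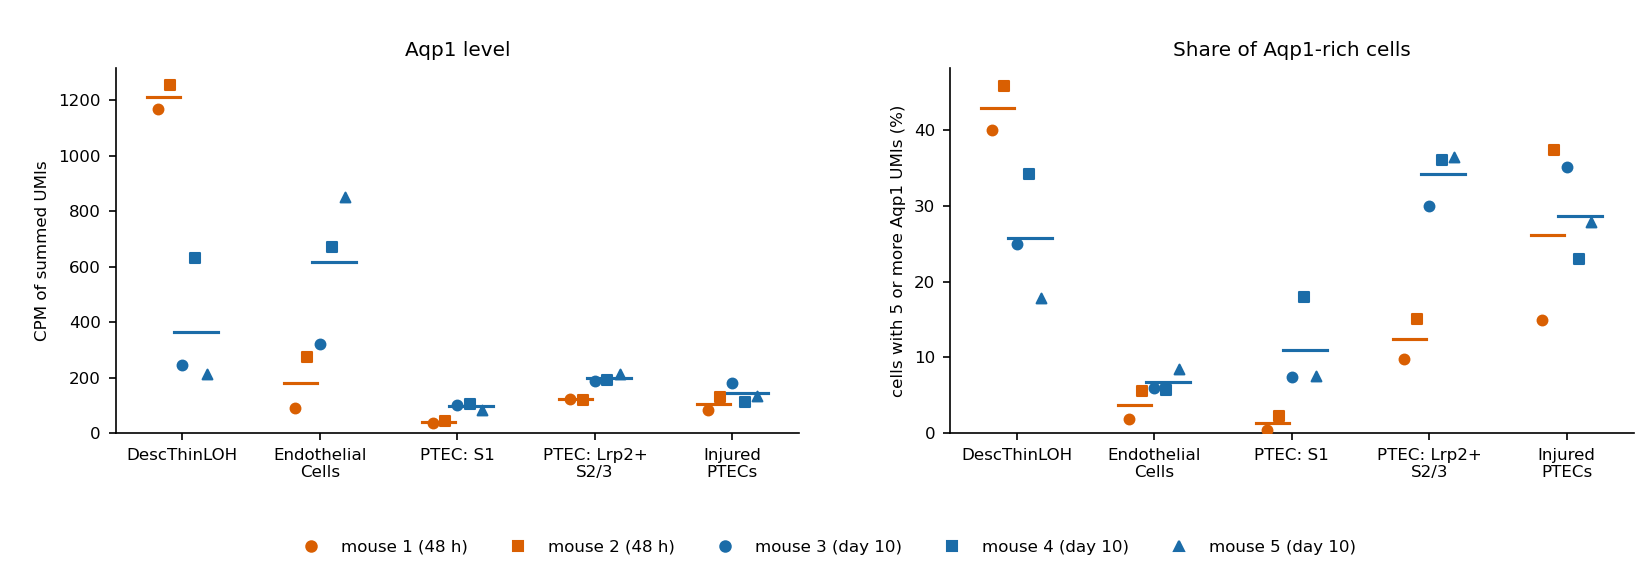
Aqp1 in 5 labels: CPM of summed UMIs (left) and percent of cells with 5 or more Aqp1 UMIs (right), one point per mouse with the mean of each time as a line (orange, 48 h; blue, day 10). The thin limb points of day 10 lie at 215 to 631 CPM, below the early points near 1200 CPM, while late endothelial, S1 and Lrp2-positive points lie above the early ones.

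The genes whose mean level over the 18 labels was most like that of each member were found by Pearson's r of log2(mean CPM + 1) among 12742 genes, a description of 18 points that share libraries and depth. For Aqp2 these were Col26a1 (r = 0.951), Fxyd4, Gm20485, Mcoln3 and Slc9a4, and for Aqp3 Fxyd4 (0.925), Aqp2 itself (0.913), Mcoln3, Slc9a4 and Kcne1. For Aqp4 the nearest were the transcription factor Elf5 (0.958), Mcoln3, Mgat4c, Fxyd4 and Grp. Avpr2 was nearest to the protease Tmprss4 (0.960), Hsd11b2 (0.936), Atp10b, Celf3 and A930017K11Rik. Aqp6 was nearest to 2610016A17Rik (0.947), the type A exchanger Slc4a1 (0.945), 1700009J07Rik, Dmrt2 and Atp6v1c2. Aqp1, with several cell types, had weaker likenesses beyond Tmem252 (0.916), with Afap1l1 at 0.886, Kcnk5 at 0.842 and Chn2 at 0.840.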

How the data were processed

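Each of the 5 libraries is 1 mouse kidney. The authors deposited raw UMI counts per gene and barcode and a table of kept cells with cell type labels. The percent of mitochondrial UMIs in the deposited table was not used. Cell Ranger 6.0.2 with the mm10 build and Seurat 4.0.5 are named in the submitters' processing notes, and the deposited matrix headers give Cell Ranger 6.0.0. Strand settings and doublet removal are not given in the sources used here, and no doublet caller was run.

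UMIs of the kept cells were summed per mouse and label. The tests used edgeR 4.0.16 under R 4.3.3: its filterByExpr, TMM scaling and the quasi-likelihood F test, with Benjamini-Hochberg adjustment at 0.05. Dividing a fold change (log2) by the square root of F gave its SE. Differences between time effects were interaction terms with mouse as a block. Summed counts of kept cells were 45887945 to 78351722 UMIs per library. CPM are of raw totals. Alternatives were library sizes alone, no filter, DESeq2 1.42.0, leaving out the 5% deepest cells, thinning to 1000 UMIs per cell, at least 20 cells, and leaving out each mouse. Fits were tested on simulated data. The rule for named genes took the 6 members, the 5 nearest patterns of each among genes with a mean of at least 10 CPM in a label, and up to 3 rises and 3 falls per list. Some genes that the rule names are not reported here. The members and lists were chosen with earlier results of these data known. Shares of cells have no test.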

Additional observations from a re-analysis of the deposited data

Results flagged for a closer look

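A pair of results differed between cell types by a test of the difference itself. The time effect of Aqp1 was lower in the descending thin limb than in endothelial cells by a log2 value of -3.68 (edgeR interaction term, SE 0.51, adjusted p = 0.00239), with lower late levels in 3 of 3 mice in the former and higher ones in 3 of 3 in the latter. The time effect of Aqp2 was lower in principal cells than in the connecting tubule by -1.11 (SE 0.17, adjusted p = 0.0390), a pair of labels chosen after the data were seen.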

How the results depend on the processing

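The number of calls went from 3 to 17 with no filter and 7 with DESeq2, and was between 0 (without mouse 2) and 6 (without mouse 1) when a mouse was left out, with 1 without mouse 5. The number was 3 with library sizes alone (2 of the original calls and 1 other) and at 20 cells, 2 when thinned (1 original, 1 other) and 2 without the deepest cells (both original). DESeq2 kept 2 of the 3. The difference of Aqp1 between thin limb and endothelium kept its call in every alternative run. That of Aqp2 between principal cells and connecting tubule was -0.74 (adjusted p = 0.499) when thinned and -1.19 to -1.05 with a mouse left out. Leaving out mouse 1 or 2 leaves 1 early mouse, which is then assumed to vary like the late ones.

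Of 189 values under alternatives for 20 results, 143 kept direction and side of the threshold, 16 lost and 19 gained a call and 11 turned. None of the turned results was called: Avpr2 between principal cells and connecting tubule thinned (0.19), Aqp1 in injured proximal tubule without mouse 1 (-0.25) or 3 (-0.20; highest 0.39), Avpr2 in the connecting tubule with library sizes alone (0.053) or without mouse 1 (0.18) or 3 (0.06; lowest -0.35), Aqp3 in intercalated cells without the deepest cells (0.024), thinned (1.48) or without mouse 2 (0.14; lowest -0.50), Aqp4 there without the deepest cells (6.10) and Avpr2 in the thick ascending limb without mouse 1 (-0.34; highest 0.59). The highest and lowest are over leaving out each mouse. The cause was not tested.

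Thinning to 1000 UMIs lowers shares by its construction: mean shares of positive cells went from 42.4 to 25.8% for Aqp1 in the thin limb, and in principal cells from 82.6 to 58.5% for Aqp2, 72.7 to 32.7% for Aqp3, 74.7 to 27.1% for Aqp4 and 61.5 to 10.9% for Avpr2, and from 60.6 to 43.8% for Aqp6 in intercalated cells. At 3000 UMIs they were 52.3% for Aqp3, 48.0% for Aqp4 and 28.9% for Avpr2. No paired analysis was possible because no replicate number occurs at both times.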

Other observations

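These genes were named once their values were seen. Avpr1a, another vasopressin receptor, had its highest mean in intercalated cells (155 CPM), against 6.38 CPM in interstitial cells as the next label and 0.511 CPM in principal cells, and Avpr1b had 0 UMIs. In the thick ascending limb the prostaglandin receptor Ptger3 (log2 fold change -1.22) and the cyclase Adcy6 (-0.60) fell, as did Slc5a3 (1167 and 1037 CPM early, 392, 436 and 383 CPM late, -1.81) and the potassium channel Kcnj1 (-1.31). The taurine transporter Slc6a6 (1.48), Hsd11b2 (1.57) and Scnn1b (2.09) rose there. In that label 10.4% of all genes were called in either direction. Of 24 vasopressin signalling genes that passed the filter 0 rose and 2 fell. Of 6 osmolyte and urea genes 1 rose and 1 fell, and of 8 sodium and potassium genes 2 rose and 2 fell.

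Among other aquaporins, Aqp11 was highest in the Lrp2-positive S2/3 label (49.4 CPM) and Aqp7 in the S1 label (12.6 CPM). Aqp9 in immune cells fell from 11.1 and 15.3 CPM to 3.81, 3.62 and 3.75 CPM (edgeR log2 fold change -1.78, SE 0.21, adjusted p = 0.00634). Calls were common in that label, with 2774 of 14425 genes called, and Aqp9 was 1 of 2 other aquaporins that passed the filter there. In cells labelled as cycling proximal tubule Mal was 46.3 and 26.3 CPM early and 1146, 1022 and 1147 CPM late, and Hnf4a, a proximal tubule factor, 178 and 230.5 CPM early and 12.8, 4.99 and 24 CPM late, so the late cells of that label (34, 18 and 35) go against its name.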
